A study of Homo sapiens with 4 samples.

Results

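The 10 genes described here encode the enzymes of lower glycolysis, from aldolase to enolase: ALDOA, ALDOC, TPI1, GAPDH, PGK1, PGAM1, BPGM, ENO1, ENO2 and ENO3. They were chosen by gene symbol, with earlier results of these data known, and each symbol matched 1 of the 60609 gene identifiers in the table. All 10 passed the filter on low values, set at a mean of 1 normalized count, and were tested among 27486 genes. The cells were CCRF-CEM/HA-AMPKa2, a derivative of the established human T cell acute lymphoblastic leukaemia line CCRF-CEM with an HA-tagged alpha 2 subunit of AMPK, and both groups carried it. PRKAA2, the gene of that subunit, had 409 normalized counts in both control libraries and 670 and 662 without glucose (log2 fold change 0.70 ± 0.08, SE), and the table does not separate the tagged copy from the cells' own gene. Cells grown in RPMI with 10% FBS were kept for 24 hours in control medium (Ctrl, 2 libraries, CTRL_7 and CTRL_8) or in medium without glucose (No glucose, 2 libraries, ONG_9 and ONG_10). Total RNA was sequenced, and the labels give neither the promoter of the tagged subunit nor whether the line is a clone. Nor do they say that replicates came from separate cultures: each p-value then reflects the spread among these libraries alone, and that spread may be technical. The libraries held 19035535 to 96698709 gene reads, CTRL_7 being the deepest.

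Glycolysis breaks glucose down to pyruvate in the cytosol. In its lower part aldolase splits fructose bisphosphate into triose phosphates, triose phosphate isomerase interconverts them, and the remaining enzymes carry glyceraldehyde phosphate through oxidation, ATP-forming phosphate transfer and dehydration to phosphoenolpyruvate. Proliferating leukaemia cells are known for a high flux through this pathway, and several of its genes are textbook targets of MYC, which binds the E-box CACGTG, and of hypoxia-inducible factors, which bind the shorter core ACGTG.

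Promoters are shown for the genes that changed, because ENO1 and PGK1 rose while TPI1 and BPGM fell. The 250 bases before the RefSeq start of each gene (GRCh38.p14) are given 5′ to 3′ on the gene's own strand, with the core ACGTG, on either strand, in capitals. PGK1 lies at chrX:78103998-78104247 (plus strand), ENO1 at chr1:8878687-8878936 (minus), TPI1, for the first of its listed starts, at chr12:6867281-6867530 (plus), and BPGM at chr7:134646603-134646852 (plus).
PGK1: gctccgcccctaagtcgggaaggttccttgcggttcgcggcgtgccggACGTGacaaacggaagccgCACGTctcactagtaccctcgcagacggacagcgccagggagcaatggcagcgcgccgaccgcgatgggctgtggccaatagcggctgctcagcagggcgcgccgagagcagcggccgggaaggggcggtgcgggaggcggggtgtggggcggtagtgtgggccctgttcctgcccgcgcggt
ENO1: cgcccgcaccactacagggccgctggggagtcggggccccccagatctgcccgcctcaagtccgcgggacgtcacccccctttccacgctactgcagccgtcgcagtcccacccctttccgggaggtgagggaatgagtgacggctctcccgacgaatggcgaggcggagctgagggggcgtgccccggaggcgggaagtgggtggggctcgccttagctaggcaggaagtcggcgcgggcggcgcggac
TPI1: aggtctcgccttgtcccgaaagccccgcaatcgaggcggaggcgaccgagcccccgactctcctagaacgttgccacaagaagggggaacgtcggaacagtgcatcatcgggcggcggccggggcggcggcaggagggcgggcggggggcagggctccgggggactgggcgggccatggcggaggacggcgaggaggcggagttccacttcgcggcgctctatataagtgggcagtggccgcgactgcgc
BPGM: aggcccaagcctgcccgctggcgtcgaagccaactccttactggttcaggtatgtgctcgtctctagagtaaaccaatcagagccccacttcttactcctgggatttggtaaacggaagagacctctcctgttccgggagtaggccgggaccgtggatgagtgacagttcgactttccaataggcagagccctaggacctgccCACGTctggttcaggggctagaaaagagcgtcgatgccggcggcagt
The PGK1 window held 2 cores, 202 and 183 bases before the start, BPGM held 1 core 47 bases before it, and ENO1 and this TPI1 window held none. The window of the other TPI1 start listed, not printed here, held 1 core 17 bases before that start. The core was found in 9 of the 14 windows that RefSeq lists for the 10 genes, from 7 of the genes. Over all genes it was in 18.5% of 35116 windows of the same length, or 21.5% of those with a GC content of at least 50%. The E-box CACGTG, which contains the core, was in 3 of the 14 windows, those of ALDOC, GAPDH and a start of ALDOA, and in 6.34% of all windows, or 8.13% of those of that GC content. The GC box GGGCGG was in 9 of the 14 and in 42.6% of all, or 60.4% of those of that GC content. These matches are descriptions of the letters in the windows, and a RefSeq start need not be the start in use in these cells.

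Without glucose, ENO1 and PGK1, the most abundant enolase and the kinase that makes the first ATP of the pathway, rose by 37.9% and 40.6% of their control mean. TPI1, the isomerase of the triose phosphates, fell to 0.769 of its control mean, and BPGM, which makes the side product bisphosphoglycerate, to 0.629. Of the 10 genes 4 passed an adjusted p under 0.05 (limma, Benjamini-Hochberg), against 35.1% of all genes tested. The 2 higher and the 2 lower genes stand against 14.4% and 20.7% of all genes. The other 6, ALDOA, ALDOC, GAPDH, PGAM1, ENO2 and ENO3, passed in neither direction. The median log2 fold change was 0.01 over the 10 genes and 0.04 over all genes tested. Each fold change is the difference, No glucose minus Ctrl, of log2(normalized count + 1), which understates changes of low genes. In these bulk samples fewer cells of a type and less RNA per cell cannot be told apart.

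**Figure D1:**
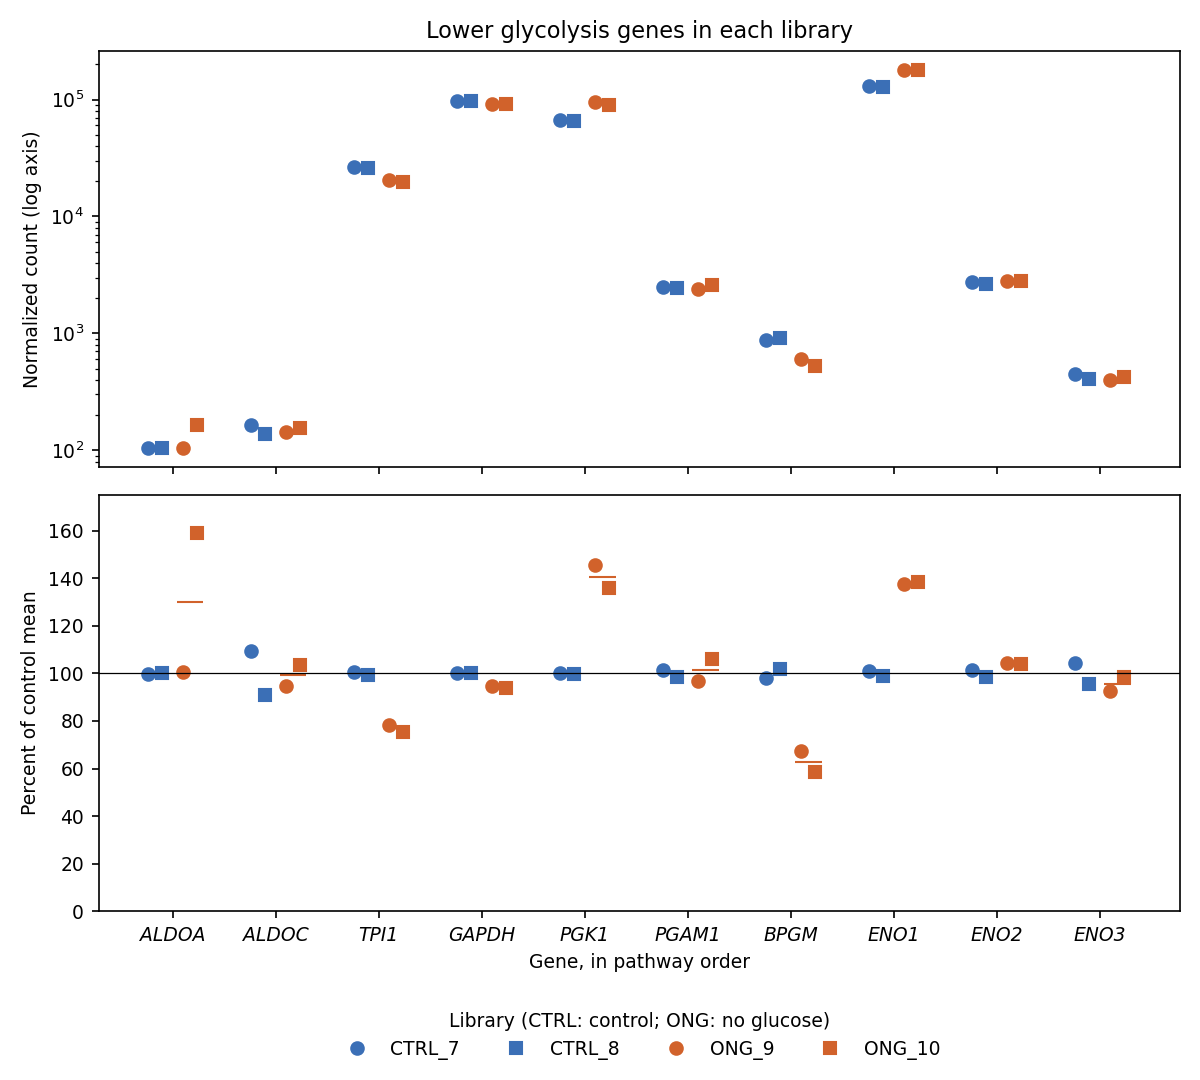
Top, normalized counts (log axis) of the 10 genes in each library; bottom, the same values as a percent of each gene's control mean, with a line at the No glucose mean. Both No glucose libraries lie above both control libraries for PGK1 and ENO1 and below them for TPI1 and BPGM.

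The aldolase genes were low in this table. ALDOA, the form found in most tissues (chromosome 16, 30064164 to 30070457, plus strand, GENCODE 29), had 103.7 and 104.3 normalized counts in CTRL_7 and CTRL_8 and 104.6 and 165.6 in ONG_9 and ONG_10. ONG_10 stood above the rest and ONG_9 lay level with the controls, at 69 to 302 reads per library, and the log2 fold change was 0.34 ± 0.20 (SE, limma adjusted p = 0.22). Without ONG_9 it was 0.67 and passed (limma adjusted p = 0.0027), and without ONG_10 it was 0.01. Of the 75-base windows of the principal ALDOA transcript, 81.3% also occur, letter for letter, in AC093512.2, a protein-coding gene annotated over ALDOA on the same strand. AC093512.2 itself was listed at 19.7 to 28.9 normalized counts, and the part of this shared sequence in the low ALDOA level was not tested. ALDOC, the aldolase best known from brain, shared no such window with another gene. It had 164 and 136 normalized counts in the control libraries and 143 and 156 without glucose, so the groups overlapped (log2 fold change -0.01, 95% confidence interval -0.32 to 0.31).

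TPI1, which interconverts the triose phosphates (chromosome 12, 6867119 to 6870948, plus strand), had 26445 and 26194 normalized counts in the control libraries. It had 20619 and 19857 in the No glucose libraries, both below both controls. The log2 fold change was -0.38 ± 0.05 (SE, n = 2 per group, limma adjusted p = 6.0e-05). Without CTRL_7 the change was -0.37 with an adjusted p of 0.051, and scaling to library totals gave -0.17, so both the call and the size depend on these choices. In TPI1, 18.2% of 75-base windows recur in the pseudogene TPI1P1, which had 57.5 to 96.9 normalized counts.

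GAPDH, which oxidizes glyceraldehyde phosphate and reduces NAD (chromosome 12, 6533927 to 6538374, plus strand), had no call. It had 97597 and 97596 normalized counts in the control libraries and 92440 and 91554 without glucose. Both No glucose values were lower, with a difference of means of -5.74%, a log2 fold change of -0.09 ± 0.04 (SE, limma adjusted p = 0.14) and a 95% confidence interval of -0.18 to 0.01. The sign of this small difference followed the scaling. With edgeR on the recovered reads it was -0.13 (adjusted p = 0.0073) and with scaling to library totals 0.13 (limma adjusted p = 0.0025), while leaving out ONG_9 or ONG_10 gave -0.09 and -0.08 with adjusted p = 3.7e-06 and 0.0066.

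GAPDH and PGK1 both serve as reference genes for PCR, and 12 further genes in that use were counted beside them. By limma 10 of the 12 fell and none rose (none either at an unadjusted p under 0.05, by edgeR or by DESeq2), and their median log2 fold change was -0.51. Over all genes 20.7% were lower, and 53.8% of those averaging 1000 normalized counts or more, the level of most of the 12. The transferrin receptor TFRC (-2.09 ± 0.05, SE) and the cyclophilin gene PPIA (-1.11 ± 0.05) moved the furthest. B2M (-0.14 ± 0.06) and YWHAZ (0.01 ± 0.05) had no call, and YWHAZ was called lower without ONG_9 and higher without ONG_10. With scaling to library totals 8 of the 12 were lower and YWHAZ was higher.

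PGK1, which makes the first ATP of the pathway, had 66245 and 65841 normalized counts in the control libraries. It rose to 96072 and 89627 in ONG_9 and ONG_10, with all No glucose values above all control values. The log2 fold change was 0.49 ± 0.05 (SE, n = 2 per group, limma adjusted p = 9.4e-06). Across 15 other settings it ranged from 0.44 to 0.70 and passed the threshold in each. GENCODE 29 places PGK1 on chromosome X from 77910739 to 78129296 (plus strand), where its longest models overlap ATP7A, a copper transporter gene on the same strand that rose by 1.32 ± 0.06. ATP7A had 1724 to 4394 normalized counts over the 4 libraries, and its part in the PGK1 count was not tested. Only 0.395% of the 75-base windows of the principal PGK1 transcript recur in another gene.

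PGAM1, the mutase that moves the phosphate group of phosphoglycerate (chromosome 10, 97426160 to 97433441, plus strand), had overlapping groups. Its control libraries held 2506 and 2428 normalized counts and its No glucose libraries 2385 and 2615, a log2 fold change of 0.02 (95% confidence interval -0.13 to 0.16). With scaling to library totals it was 0.23 and passed (limma adjusted p = 0.025), though it lay below the median of all genes on that scale, 0.24. Of its 75-base windows 39.8% recur in other annotated genes, and the gene entry that shares the most, AC012085.1, was listed at 0. With pseudogene counts added the log2 fold change of PGAM1 was 0.03. The part of the shared sequence in its level was not tested.

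BPGM, best known in red cells, where its product lowers the oxygen affinity of haemoglobin, lies on chromosome 7 (134646808 to 134679813, plus strand). It had 882 and 918 normalized counts in the control libraries and 605 and 528 without glucose. Both No glucose libraries were lower, with a log2 fold change of -0.67 ± 0.09 (SE, n = 2 per group, limma adjusted p = 1.0e-04). It ranged from -0.77 to -0.46 over the other settings and passed in all 15. The erythroid markers were near 0, with HBB listed at 0 in all 4 libraries and the 6 markers summing to 4.55 to 7.02 normalized counts. Within each library the log2 ratio of BPGM to PGAM1 went from -1.46 ± 0.07 in Ctrl to -2.14 ± 0.23 without glucose (SD, n = 2).

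ENO1, the enolase of most tissues (chromosome 1, 8861000 to 8879250, minus strand), had the smallest p of the 10 genes. The control libraries held 131469.6 and 128765 normalized counts and the No glucose libraries 178808 and 179973, with no overlap. The log2 fold change was 0.46 ± 0.04 (SE, n = 2 per group, limma adjusted p = 5.1e-06), and it lay between 0.42 and 0.67 in the other settings, passing in all 15. The antisense gene ENO1-AS1 had 8.42 to 15.2 normalized counts, against at least 128765 for ENO1 itself.

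The other enolases had no call. ENO2, the neuronal form (chromosome 12, 6913745 to 6923698, plus strand), had 2721 and 2647 normalized counts in Ctrl and 2796 and 2785 without glucose. The No glucose values were marginally higher, with a log2 fold change of 0.06 (95% confidence interval -0.07 to 0.18, limma adjusted p = 0.51). With scaling to library totals ENO2 was called higher, by 0.27. ENO3, the muscle form (chromosome 17, 4948092 to 4957131, plus strand), had 446 and 408 against 396 and 420, with overlapping groups and a log2 fold change of -0.07 (95% confidence interval -0.27 to 0.14). It overlaps the profilin gene PFN1 on the opposite strand, which had 13123 to 24974 normalized counts and fell by 0.91 on the log2 scale. The strand setting of the counting is not given in the sources used here, so the part of PFN1 in the ENO3 count was not tested.

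Ratios within a library do not depend on the scaling and set the isozymes against each other. The log2 ratio of ENO2 to ENO1 was -5.59 and -5.60 in the control libraries and -6.00 and -6.01 without glucose, a difference of -0.41. That of ENO3 to ENO1 differed by -0.53, with no overlap. ENO1 made up 97.6% and 97.7% of the enolase reads in CTRL_7 and CTRL_8 and 98.2% and 98.3% in ONG_9 and ONG_10. For ALDOC to ALDOA the groups overlapped. With 2 libraries against 2, the exact two-sided permutation test gave p = 0.333 for each enolase ratio and for BPGM to PGAM1, the smallest value it can give, and 0.667 for ALDOC to ALDOA. Further ratios were added after the values were seen. The log2 ratio of PGK1 to GAPDH moved from -0.56 ± 0.01 to 0.01 ± 0.06 (SD, n = 2), and that of ENO1 to TPI1 from 2.31 ± 0.01 to 3.15 ± 0.05.

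Levels per kilobase of merged exon length, in normalized counts per kilobase, allowed the genes to be set in order. In Ctrl the order was GAPDH (32739.6), ENO1 (24662), PGK1 (11982), TPI1 (9748), PGAM1 (961), ENO2 (627), BPGM (354), ENO3 (99.5), ALDOC (51.3) and ALDOA (26.6). Each step was wider than the SD of its neighbours (n = 2). Without glucose ENO1 (34001) stood above GAPDH (30861), and PGK1 (16845) was further from TPI1 (7496). Per kilobase of coding length ENO1 was already first in Ctrl, at 99937 against 97111 for GAPDH, and per kilobase of the longest transcript TPI1 stood above PGK1 there. The order of the leading genes in Ctrl therefore depends on the length used, while that without glucose was the same for all 3 lengths.

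The 10 genes together took 0.990% ± 0.0014 of all gene reads in Ctrl and 1.37% ± 0.0067 without glucose (SD, n = 2), with both No glucose libraries higher (exact permutation p = 0.333, the smallest possible). In normalized counts the difference of their sum was smaller, 326809 ± 2504 against 391024 ± 4729, or 19.6%. ENO1, PGK1, GAPDH and TPI1 made up most of the sum in both groups, with 0.970% ± 0.002 and 1.35% ± 0.006 of reads. In normalized counts the ENO1 and PGK1 means were higher without glucose, and those of GAPDH and TPI1 lower. The enolase step went from 0.404% to 0.640% of reads and the kinase step from 0.200% to 0.325%.

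**Figure D2:**
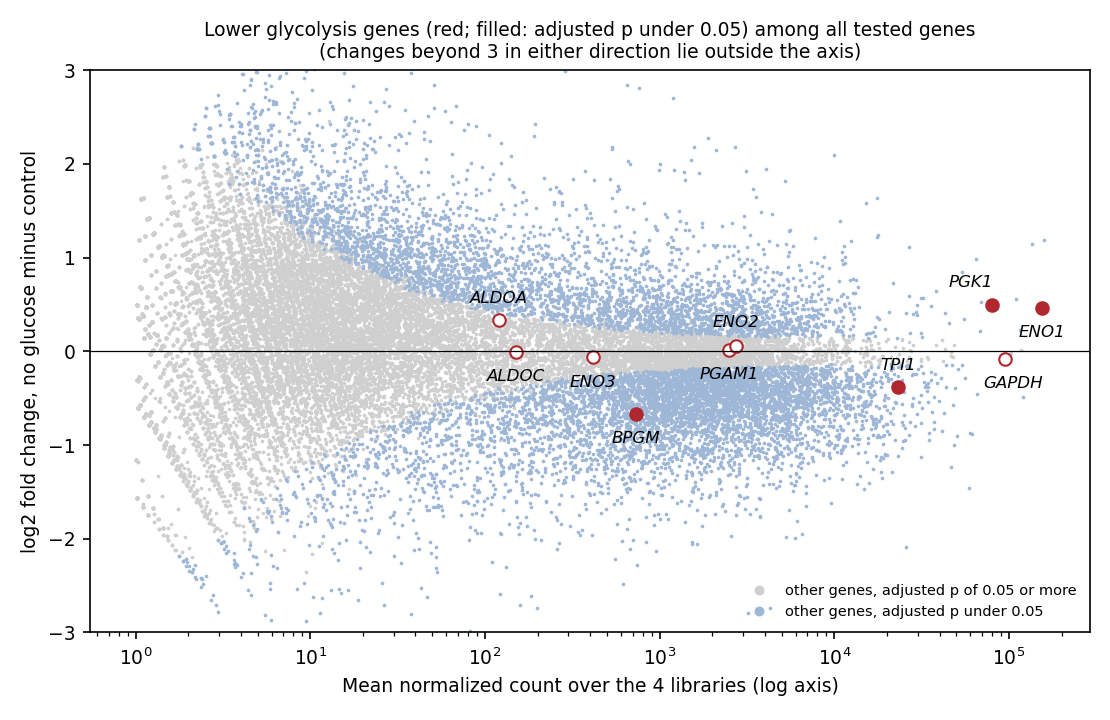
Mean normalized count over the 4 libraries (log axis) against the log2 fold change for 27486 genes, with the 10 lower glycolysis genes in red. ENO1 and PGK1 lie above 0 at the abundant end, where most called genes lie below it.

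Abundant genes were called more often than the rest. Of the 538 genes averaging 10000 normalized counts or more 80.1% were called, 17.5% upward and 62.6% downward, and their median log2 fold change was -0.31. ENO1, PGK1, GAPDH and TPI1 belong to these genes, and ENO1 and PGK1 were called higher and TPI1 lower. With PGAM1 and ENO2, 6 of the 10 genes averaged 1000 or more, a level at which 72.4% of genes were called, 18.6% upward and 53.8% downward. The groups did not overlap for 7 of the 10 genes, against 66.8% of all genes tested. Of these 7, ALDOA, PGK1, ENO1 and ENO2 were higher without glucose and TPI1, GAPDH and BPGM lower, where 35.1% and 31.7% of all genes were so separated.

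The steps before aldolase also held genes of both directions. Of 12 genes from glucose uptake to phosphofructokinase, 4 rose and 4 fell, against 14.4% and 20.7% of all genes tested, and the median log2 fold change was -0.05. The glucose transporter SLC2A3 rose by 1.31 ± 0.08 (SE) and the hexokinase HK2 by 0.66 ± 0.06, and the phosphofructokinase gene PFKM fell by 1.09 ± 0.07. The remaining called genes were named after their values were seen. The transporter SLC2A1 (0.32 ± 0.06) and the isomerase GPI (0.35 ± 0.05) were higher, and lost their calls without CTRL_7 and without CTRL_8. The hexokinase HK1 (-0.16 ± 0.05) was lower, and lost its call in these settings, with library totals and with the GC and length correction. The other phosphofructokinase genes, PFKL (-0.49 ± 0.15) and PFKP (-0.37 ± 0.08), were no longer called with scaling to library totals or without CTRL_7, and PFKL neither with DESeq2. Without CTRL_7, 2 genes of the 12 were higher and 1, PFKM, lower. After enolase, 2 of 6 tested genes rose and 2 fell, against the same 14.4% and 20.7%. The pyruvate kinase PKM (0.34 ± 0.04) and the lactate dehydrogenase LDHA (0.52 ± 0.05) rose, and the isozyme LDHB (-0.81 ± 0.06) and the lactate transporter SLC16A1 (-1.03 ± 0.05) fell. PKM, named after its value was seen, lost its call when either control library was left out.

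**Figure D3:**
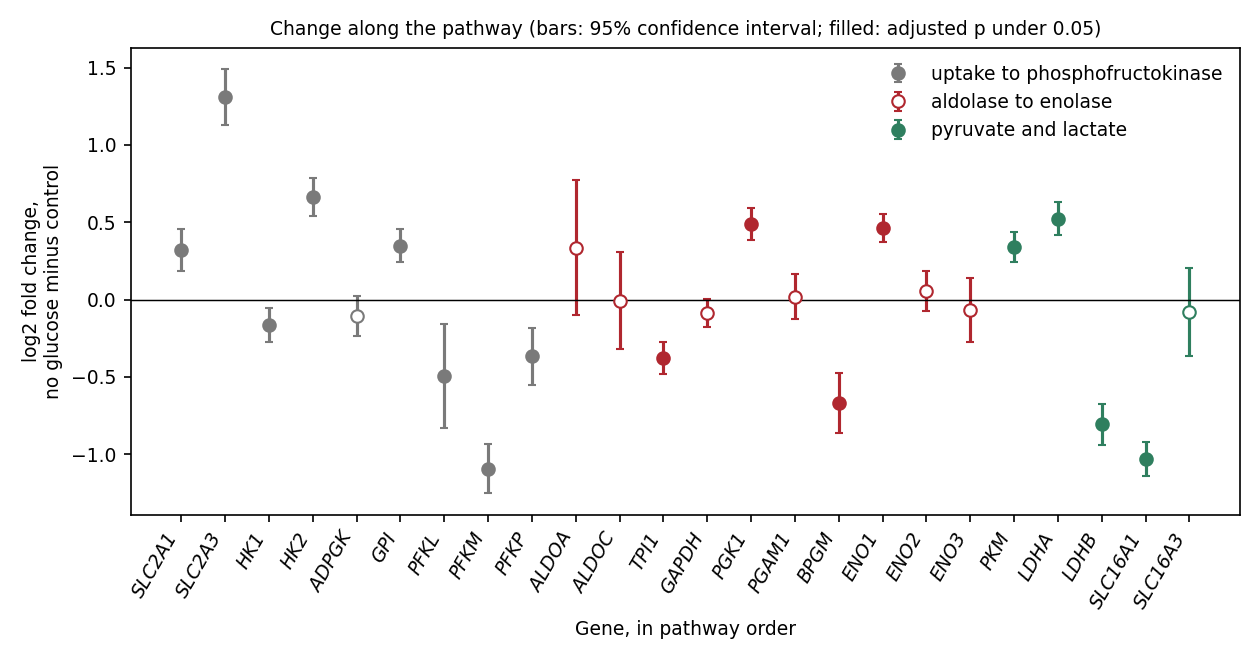
log2 fold change, No glucose minus Ctrl, with 95% confidence intervals, of pathway genes averaging 100 normalized counts or more, from uptake to lactate export. Filled points passed an adjusted p of 0.05 (limma), among them PGK1 and ENO1 above 0 and TPI1 and BPGM below it.

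Enzymes that draw on the same intermediates mostly fell. Of 11 tested genes of branches and bypasses 9 fell and 1 rose, with a median log2 fold change of -0.54, against 20.7% and 14.4% of all genes tested. Among genes averaging 1000 normalized counts or more, the level of TALDO1 and PSAT1, 53.8% were lower and 18.6% higher. The transaldolase TALDO1 (-1.16 ± 0.06, SE), the phosphoglycolate phosphatase PGP (-1.04 ± 0.08) and PSAT1 of serine synthesis, which uses the product of phosphoglycerate oxidation, fell the furthest. PSAT1 had 6594 and 6479 normalized counts in Ctrl and 3292 and 3238 without glucose. TIGAR, a phosphatase named after its value was seen, was higher by 0.50 ± 0.11, and lost this call without CTRL_8 or without ONG_10. The gluconeogenic genes FBP1 and FBP2 were listed at 0 in all 4 libraries.

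Isozymes of other tissues were near the floor. The testis form GAPDHS had 2.68 to 4.21 normalized counts, and PGAM2 of muscle was listed at 0. PGAM4, an intronless copy of PGAM1 that lies within the PGK1 models on the opposite strand, had 2.06 and 2.68 normalized counts in Ctrl and 9.10 and 9.82 without glucose (log2 fold change 1.64 ± 0.52, SE, limma adjusted p = 0.029). That call was absent with DESeq2, with no filter and when any 1 of the 4 libraries was left out.

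Hypoxia response genes outside glycolysis were counted as well. By limma 11 of 14 such genes rose and none fell (none either at an unadjusted p under 0.05, by edgeR or by DESeq2), against 14.4% and 20.7% of all genes tested, and their median log2 fold change was 1.11. ADM, BHLHE40 and BNIP3 rose by 4.65 ± 0.35, 2.18 ± 0.09 and 1.81 ± 0.06 (SE), while MXI1, CA9 and EGLN3 had no call. Whether these 14 genes share a control with any of the 10 lower glycolysis genes was not tested. In the authors' deposited table PGK1 and ENO1 had log2 fold changes of 0.49 and 0.46, TPI1 -0.38 and BPGM -0.67. These were the 2 higher and 2 lower genes of the 10 at an adjusted p under 0.05. The shares of all genes called in the deposited table are not given here. DESeq2 on the recovered reads called 8.86% of all genes tested higher and 17.7% lower.

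For each changed gene, the genes with the most similar pattern were those with the smallest Euclidean distance between centred log2 values over the 4 libraries, among 10344 candidates with a symbol and a mean level of 100 or more. For ENO1 these were CTC1 (distance 0.007) and STIM1 (0.009), and for PGK1 TMEM59 (0.008) and SCARNA7 (0.016). For TPI1 they were TPGS2 (0.005) and GANAB (0.007), and for BPGM APOL2 (0.020) and TMEM70 (0.029). Each distance was taken over 4 libraries only.

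**Figure D4:**
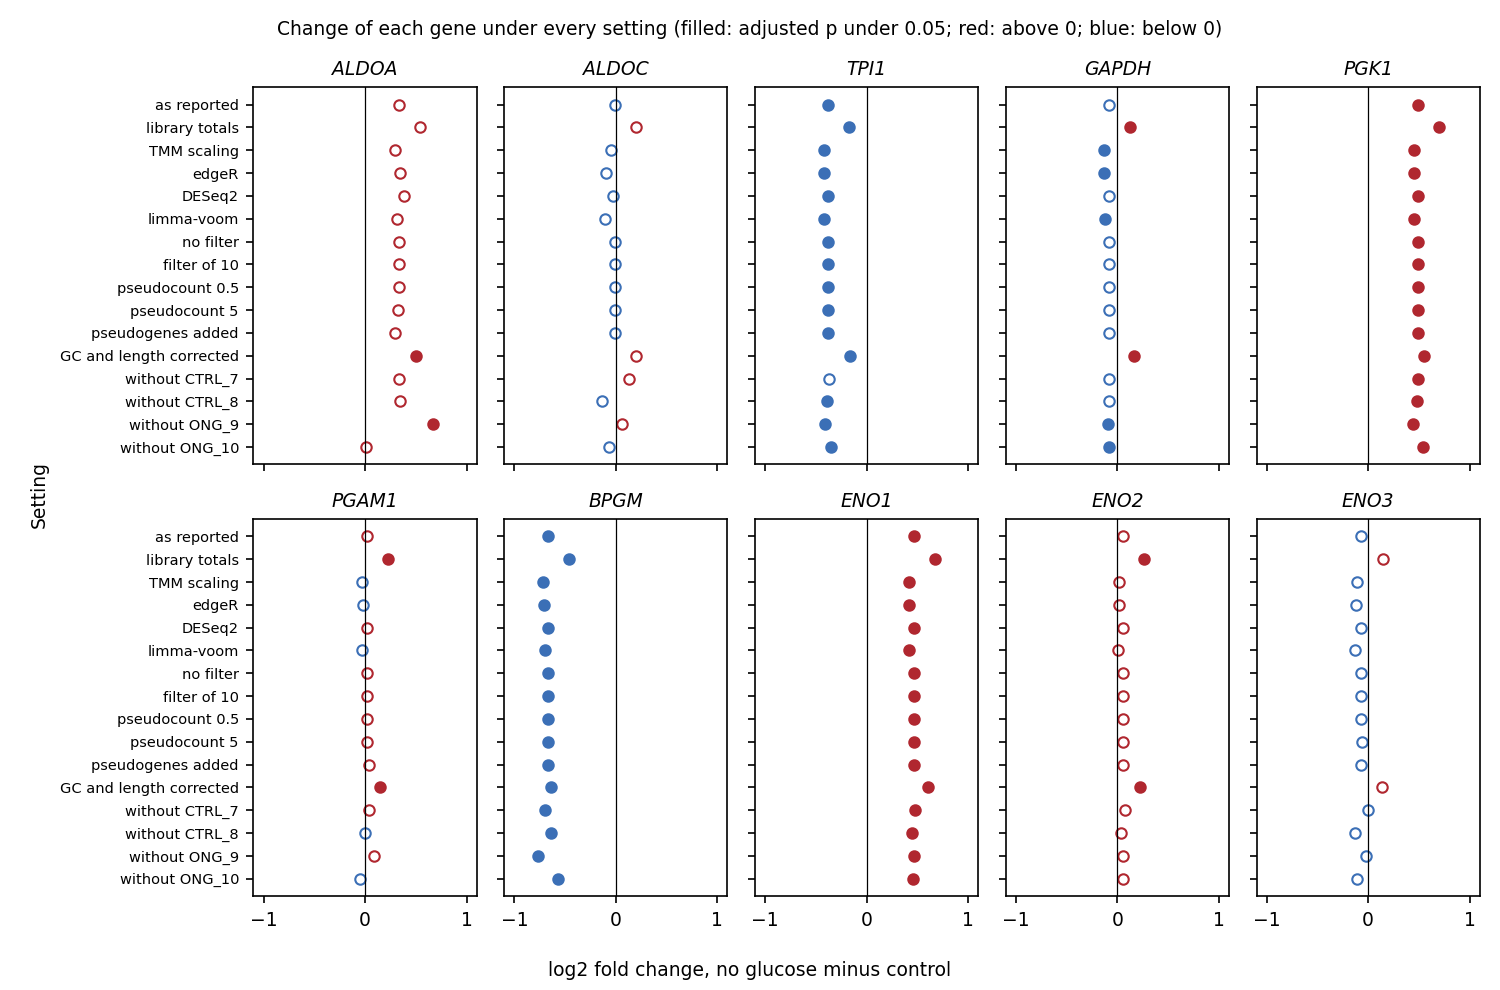
log2 fold change of each gene (x axis) as reported and under 15 other settings (rows); filled points passed an adjusted p of 0.05, red above 0 and blue below it. PGK1, ENO1 and BPGM are filled in every row, TPI1 in all but that without CTRL_7, and GAPDH changes sign with library totals and with the GC and length correction.

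Over all genes 3948 were higher and 5695 lower, or 6104 and 3821 with scaling to library totals, where the median of all genes was 0.24 in place of 0.04. On that scale PGK1 (0.70) and ENO1 (0.67) stood above this median and TPI1 (-0.17) and BPGM (-0.46) below it, and GAPDH (0.13) was below it too. That median covers genes of all levels. For genes averaging 10000 normalized counts or more the median was -0.31 in the deposited scaling, where GAPDH stood at -0.09. T lineage markers were present: all 16 passed the filter, PTCRA narrowly at 2.68 to 7.02 normalized counts. By limma 2 of them were higher, 6 were lower and 8 had no call, against 14.4% higher and 20.7% lower over all genes. Most of the 16 averaged 1000 normalized counts or more, where 18.6% of genes were higher and 53.8% lower. The sum of the 16 was 96788 to 98210.3 normalized counts in Ctrl and 88495 to 89425 without glucose. B cell markers summed to 894 to 908 and 523 to 536 and adherent cell markers to 1659 to 1687 and 1075 to 1204, with MS4A1 and COL1A2 near 0. Within the adherent list EPCAM and PECAM1 were lower, and COL1A1 was higher, at 2.06 and 2.68 in Ctrl and 7.58 and 25.3 without glucose. Myeloid markers summed to 33.4 to 54.7 over the 4 libraries, with MPO at 0. Markers of neurons and muscle, where ENO2, ALDOC and ENO3 are the usual isozymes, summed to 58.9 to 60.5 in Ctrl and 118 to 119.8 without glucose, with SYP and TUBB3 higher and MYOD1 and MYOG near 0; their part in the isozyme levels was not tested.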

How the data were processed

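Libraries were made with a stranded total RNA kit and sequenced as 75-base single-end reads, per the labels' protocols. Per the submitters' processing notes, STAR 2.6.0c, RSEM 1.3.0, DESeq2 1.18.1 and hg38 were used; annotation release and counting strand are not given in the sources used here. The deposited signal values are normalized gene counts: the authors scaled each library by its own size factor. The authors' log2 fold changes, scores (test statistics) and p-values were deposited with them and only set beside the results. The ONG columns were assigned to No glucose by elimination, since the deposited table is named for that group and ctrl alone.

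Whole reads were recovered for 100% of values above 0 (tolerance 0.01), and the filter was a mean normalized count of at least 1. limma 3.58.1 (trend, R 4.3.3) was fitted to log2(normalized count + 1); tests were two-sided, with p-values adjusted by Benjamini-Hochberg over every gene tested and a threshold of 0.05. The script was tested on simulated data. edgeR 4.0.16 and DESeq2 1.42.0 on the recovered reads, limma-voom, other scalings, filters and pseudocounts, added pseudogene counts, a GC and length correction and leaving out each library were alternatives. Positions, overlaps and lengths come from GENCODE 29 (GRCh38), promoters from RefSeq (GRCh38.p14). Named genes were the 10 enzymes, up to 3 called genes with the largest change per fixed list, singled-out genes without a call and the nearest patterns; the 10 genes and all lists were chosen with earlier results of these data known. Values of some list genes are not reported here.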

Additional observations from a re-analysis of the deposited data

How the results depend on the processing

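No paired analysis was possible because the columns of the table carry no replicate number of the labels. PGK1, ENO1 and BPGM kept their direction and their call under all 15 alternatives, and TPI1 lost its call only without CTRL_7. With scaling to library totals 5 of the 10 genes were higher (22.2% of all genes). GAPDH, PGAM1 and ENO2 were added to PGK1 and ENO1, with PGAM1 (0.23) below the median of all genes on that scale, 0.24. After the GC and length correction 6 of the 10 genes were higher (18.3% of all genes), with ALDOA as well. Leaving out 1 library gave 2 to 3 higher and 1 to 3 lower, the lowest without CTRL_7. The log2 fold change reversed with library totals to 0.20 for ALDOC, 0.13 for GAPDH and 0.14 for ENO3, all below the median of all genes on that scale, 0.24, so relative to it they were not higher. With the GC and length correction the log2 fold change reversed to 0.20, 0.16 and 0.13 for these genes. The median of 0.24 covers genes of all levels. In the deposited scaling GAPDH (-0.09) lay above the median of genes averaging 10000 normalized counts or more (-0.31). PGAM1 turned to -0.025 with TMM scaling, -0.024 with edgeR and -0.031 with limma-voom, and lay between -0.049 and 0.084 with 1 library left out, where ALDOC lay between -0.14 and 0.13. Before aldolase, 1 gene was lower with library totals, and leaving out 1 library gave 2 to 5 higher and 1 to 4 lower, the lowest without CTRL_7. After enolase 1 to 2 were higher with 1 library left out, and the 2 lower genes stayed 2. In the branches 2 genes were higher with library totals, limma-voom and the GC and length correction, and 0 to 1 with 1 library left out. Over all genes 9643 were called, and 5345 and 6101 without CTRL_7 and without CTRL_8. The summed level kept its direction under the 6 alternatives run for it. Scaling cannot change a ratio within a library; with 1 library left out each isozyme ratio kept its sign, and that of ALDOC to ALDOA ran from -0.61 to -0.08. The cause of these shifts was not tested. A left-out library leaves a group with 1 sample, which is assumed to vary like the other group. Depth limits ALDOA and ALDOC most, at 69 to 478 reads per library.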
